A study of Xenopus laevis with 45 samples.

Results

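Whole tadpoles of the frog Xenopus laevis were compared at stage 41 after injection of ERFE MO1, an antisense morpholino directed against erythroferrone (ERFE). The 3 libraries of embryos given 10 ng ERFE MO1 (called MO1 here) were set against the 3 libraries given 10 ng of a standard control morpholino (cMO), and each gene was also checked against 3 libraries of uninjected stage 41 embryos. The libraries were taken by their titles, 6 of the 45 in the series for the main comparison. Both morpholinos went into 4 vegetal blastomeres of 8-cell embryos, which give rise mainly to endoderm, and all 3 groups were kept in 0.1x MBS. No further genotype, strain or agent is given in the labels. The labels do not say how many embryos a library pools, or whether replicates come from separate clutches, so a p-value here gauges no more than how these libraries vary, and that variation may be technical.

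Erythroferrone, listed in the files by its older name fam132b, is a secreted protein known in mammals to be made by red cell precursors. It binds bone morphogenetic proteins (BMPs), lowers hepcidin in the liver and so raises the supply of iron. Between stages 37/38 and 41 the tadpole gut coils and its stomach, pancreas and intestine begin to make their own enzymes, pumps and mucins. A morpholino can block either translation or splicing of its target. Which of these MO1 does is not stated in the labels, and a translation block need not lower the transcript.

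The 9 stage 41 libraries hold 25888092 to 38681011 counts assigned to genes, and no gene took more than 0.682% of a library. A count of 3 in a library, the most that a count of 0 allows, equals 0.0766 to 0.114 counts scaled to library size (CPM). Intervals and this floor cover counting error only. Defining transcripts of the tissues of a whole tadpole were present in all 9 libraries, among them elavl3 of neurons, krt12 of epidermis, ckm of muscle, myh6 of heart, kdr of vessels, fabp2 of intestine and alas2 of red cells, while alb.L, listed as albumin, had only 1 to 13 counts. Libraries with the same replicate number resembled each other in all 3 groups. Replicates 2 of MO1 and cMO were run on different lanes (4 and 3), whereas replicates 1 and 3 shared a lane with their counterparts. Of 100 cytoplasmic ribosomal protein gene copies, 13 were lower in MO1 than in cMO within replicate pair 2, against 95 in pair 1 and 89 in pair 3. The part of the lane in this was not tested. Among the earlier libraries, the one labelled MO1 stage 37/38 replicate 2 and the one labelled 20 ng MO2 stage 35/36 replicate 1 were nearly the same in their counts (chi-square per gene of 1.22, where 1 is sampling noise alone), while each differed from the other libraries of its own group by 22.4 to 39.1. Which label holds was not tested. Values at stage 37/38 are therefore also given without MO1 replicate 2.

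A total of 479 of 31817 gene copies tested (1.51%) was called different between MO1 and cMO by the quasi-likelihood test of edgeR at a Benjamini-Hochberg adjusted p under 0.05. Of these, 309 (0.971%) were higher and 170 (0.534%) lower in MO1. The median log2 fold change of all genes was -0.00. This main fit did not pair the libraries by replicate number, although same-numbered libraries resembled each other. The standard errors given below come from it. All 479 were also called in the same direction when replicate number was added as a block, a fit that called 4256 copies (13.4%), 1728 higher and 2528 lower (5.43% and 7.95% of all), and also when lane was added. Single libraries moved the count: 108 copies were called without cMO replicate 3, and 217 without MO1 replicate 2. These tests borrow their estimate of spread from all 45 libraries. A fit on the 6 libraries alone called 2 copies, and 3278 with the block. With the block over all libraries, 453 to 479 of the 479 were called whichever of the 6 libraries was left out. In 301 of the 309 all 3 MO1 libraries lay above all 3 cMO libraries (6.44% of all genes), and in 160 of the 170 all 3 lay below (5.06% of all). Against all 6 control libraries these numbers were 283 (3.73% of all genes) and 145 (2.71%). The calls were made on the same MO1 and cMO libraries, so this lack of overlap describes the called copies and is no further support for them.

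Most of the called genes also differed between MO1 and embryos that were never injected. Of the 479, 476 had the same sign against uninjected embryos, where 594 copies were called in all (1.87%, 1.11% higher and 0.757% lower), and 353 also passed the test there (1.11% of all genes tested met both). The control morpholino against uninjected embryos gave only 2 calls (0.00629%), both copies of ghrh, and 15 with the block (0.0471%). These comparisons share the MO1 or the cMO libraries with the main one. Some genes have an L and an S copy, the paired copies that the frog's ancient genome duplication left. Of 9463 such pairs with both copies tested, 295 had a called copy and 52 had both called. In all 52 the direction was the same. The sign was alike in 91.5% of the 295 and in 69.4% of all tested pairs. Such copies can share reads, so a pair is not 2 independent measurements.

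**Figure D1:**
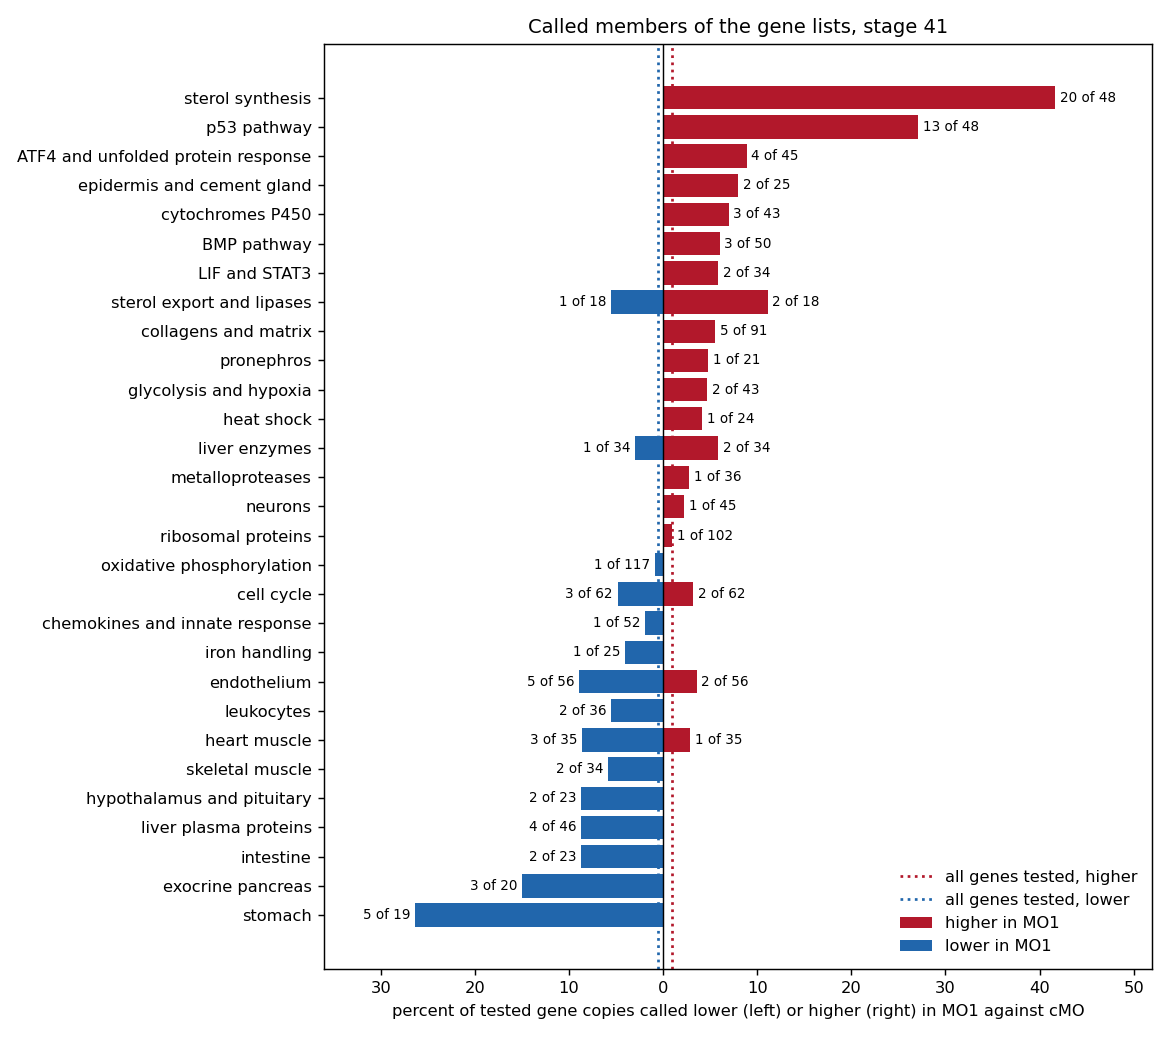
Percent of tested gene copies of each list called higher (right, red) or lower (left, blue) in MO1 against cMO at stage 41, for the lists with a call; numbers give called of tested copies and dotted lines give the share of all genes, 0.971% higher and 0.534% lower. Among the lists drawn, sterol synthesis (20 of 48 higher) and the p53 pathway (13 of 48 higher) stand at the top, and stomach (5 of 19 lower) at the bottom. The groups put together after their values were seen are not drawn.

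The targeted transcript was low in every library. It was measured at 2.31, 5.41 and 7.03 CPM in MO1 libraries (replicates 1, 2 and 3), against 4.24, 8.49 and 8.69 CPM with cMO and 4.75, 9.15 and 8.23 CPM in uninjected embryos. MO1 was the lower one in each replicate pair, but the MO1 and cMO ranges overlapped. In the main fit, which leaves the pairing out, the log2 fold change of -0.54 ± 0.39 did not pass (edgeR adjusted p = 0.646). Here and everywhere below ± gives the standard error of the fit (SE). With the replicate block the transcript passed (adjusted p = 0.0213). Over all alternatives its adjusted p was 0.00704 to 0.937.

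Among lists chosen with earlier results of these data known, the p53 pathway formed 1 of the 2 groups with the most called members. This pathway answers DNA damage and other stresses by switching on feedback inhibitors, genes that stop the cell cycle and genes of cell death. Of 48 copies tested, 13 were higher and none lower, against 0.971% and 0.534% of all genes. The median log2 fold change was 0.39. The 13 lay in the feedback genes (5 of 7) and the arrest and stress genes (7 of 15), with 1 of 15 death genes and 0 of 11 repair and metabolism genes. The fit with the block called 24 higher and 1 lower (5.43% and 7.95% of all genes). All 13 also passed against uninjected embryos.

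Among the feedback genes, mdm2.L, the ligase that marks its substrate for destruction and so limits the pathway, had 98.7, 52.4 and 74.0 CPM in MO1, against 38.9, 32.1 and 32.7 CPM with cMO and 38.0, 26.9 and 30.0 CPM in uninjected embryos. All 3 MO1 libraries lay above all 6 control libraries, with replicate 2 the lowest of the 3. The log2 fold change was 1.12 ± 0.21 (adjusted p = 0.00386), and the mdm2.S copy rose by 0.85 ± 0.17 (adjusted p = 0.00417). The phosphatase gene ppm1d.L, another brake on the pathway, had 66.7, 56.2 and 53 CPM in MO1, against 43.4, 44.5 and 38.2 CPM with cMO (0.48 ± 0.11, adjusted p = 0.012).

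The largest change of the pathway was that of eda2r.L, a receptor of the tumour necrosis factor receptor family and a known p53 target. It stood at 97.3, 62.3 and 76.9 CPM in MO1, against 12.7, 8.06 and 7.34 CPM with cMO and 9.83, 7.88 and 9.41 CPM in uninjected embryos (log2 fold change 3.07 ± 0.43, adjusted p = 0.000103). The cyclin-dependent kinase inhibitor gene cdkn1a.L, the classical arrest target of p53, had 50.7, 19.8 and 33.7 CPM, against 19.4, 11.7 and 13.6 CPM (1.22 ± 0.28, adjusted p = 0.0155). In cdkn1a.L and in ccng1.L (cyclin G1) MO1 replicate 1 was the highest library and replicate 2 the lowest of the 3. The stress sensor genes sesn1.S and sesn2.L, the polo-like kinase gene copies plk2.L and plk2.S, and both ccng1 copies made up the rest of the arrest group, with log2 fold changes of 0.45 to 1.16. Without MO1 replicate 1 or cMO replicate 3 the list had 5 higher calls in place of 13; mdm2.S, eda2r.L and sesn2.L passed in each of the 6 fits that left out 1 library. With the block all 13 were called whichever library was left out.

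Genes of the pathway were higher in MO1 embryos at all 3 stages studied. In MO1 embryos mdm2.L rose by 1.68 at stage 35/36 and 1.83 at stage 37/38 on the log2 scale, beside the 1.12 of stage 41, and 16 and 20 of the 48 copies were called higher at those stages (0.352% and 0.503% of all genes). Without MO1 replicate 2 of stage 37/38, mdm2.L rose by 2.06 at that stage and 20 copies were called higher there (0.557% of all genes). ERFE MO2, given at 20 ng and compared with 20 ng cMO at stage 41, gave log2 fold changes of 0.08 ± 0.21 for mdm2.L and 1.28 ± 0.42 for eda2r.L, and 1 call in the list, where 0.412% of all genes were called, 0.239% higher and 0.173% lower. The difference between the MO1 and MO2 responses was 1.04 ± 0.30 for mdm2.L and 1.79 ± 0.58 for eda2r.L, and neither passed (both adjusted p = 1.0). With the block both passed (adjusted p = 0.0397 for mdm2.L and 0.0377 for eda2r.L, in each case the lowest over all alternatives, which reached 1.0), as did mdm2.S (0.157% of all genes passed with the larger response in MO1). Over all genes that difference gave 0 calls in edgeR, 1046 copies at an unadjusted p under 0.05, 1 call in DESeq2 and 92 with the block (0.289%). The doses differ between the morpholinos.

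**Figure D2:**
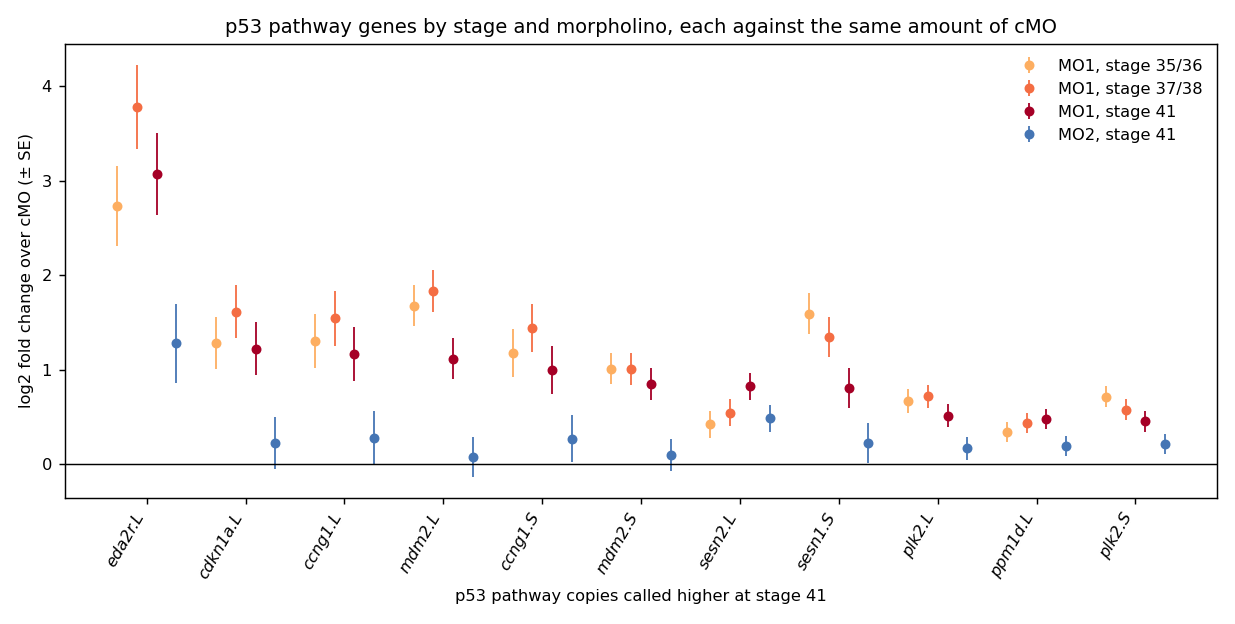
Log2 fold change over cMO (± SE) of 11 p53 pathway copies called higher at stage 41, in MO1 embryos at stages 35/36, 37/38 and 41 (10 ng, yellow to dark red) and in MO2 embryos at stage 41 (20 ng, blue). The MO1 stage 41 points lie above the MO2 points, for mdm2.L at 1.12 in MO1 against 0.08 in MO2. The copies drawn were picked by their MO1 calls at stage 41, which by itself favours higher MO1 points there. For the difference between the MO1 and MO2 responses, 0 of the 48 copies of the list were called in the main fit and 4 with the block.

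Sterol synthesis genes were the other group, with calls from the first steps of the pathway to the last. The enzymes of this route make cholesterol from acetyl groups, and their genes are switched on together by the factor SREBP2 when a cell's sterol falls. Of 48 copies tested 20 were higher and none lower, against 0.971% and 0.534% of all genes. The median log2 fold change was 0.79. Among the 33 enzyme copies 18 were called and 32 lay above 0. The block fit called 30 of the 33 enzyme copies higher (5.43% of all genes). Of the 20, 18 also passed against uninjected embryos, and sqle.S did not.

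Among the first steps, hmgcs1.L, HMG-CoA synthase, was at 108, 178 and 168 CPM in MO1, against 43.7, 70.1 and 65.3 CPM with cMO and 53.8, 75.0 and 64.2 CPM in uninjected embryos (log2 fold change 1.34 ± 0.23, adjusted p = 0.00142). Replicate 1 was the lowest library of each group, and all 3 MO1 libraries lay above all 6 control libraries. Its S copy rose by 1.19. mvd.L, a decarboxylase of the next stretch of the pathway, was at 12.3, 13.6 and 16.9 CPM in MO1, against 7.25, 8.61 and 9.21 CPM with cMO and 8.04, 7.59 and 10.1 CPM in uninjected embryos (0.77 ± 0.13, adjusted p = 0.00119), again with no overlap.

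Later enzymes followed the same direction. Squalene epoxidase, sqle.L, the first oxygen-using step, was at 5.12, 8.33 and 10.3 CPM in MO1, against 1.48, 2.57 and 1.91 CPM with cMO (log2 fold change 2.0 ± 0.37, adjusted p = 0.00287). The demethylase gene cyp51a1.L had 16.6, 41.0 and 38.0 CPM, against 6.77, 12.7 and 11.7 CPM (1.61 ± 0.34, adjusted p = 0.00788). The oxidase gene msmo1.L had 12.7, 29.0 and 29.3 CPM, against 2.22, 6.77 and 5.25 CPM (2.32 ± 0.56, adjusted p = 0.0242). In these 3 genes each MO1 library lay above its own cMO counterpart and above the uninjected one. The S copies of sqle and cyp51a1 rose by 1.66 and 2.15. idi1.L, fdps.L, fdft1.L, fdft1.S, lss.S, nsdhl.S and sc5d.L were also called, with log2 fold changes of 0.81 to 1.69.

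Of the regulators, insig1.S, which holds SREBP in the endoplasmic reticulum, rose by 1.32 ± 0.27 (adjusted p = 0.00581), and srebf2.S, the SREBP2 gene, by 0.51 ± 0.13 (adjusted p = 0.0344). None of the 7 copies of uptake genes was called in edgeR, where 3 had an unadjusted p under 0.05 (11.9% of all genes did); DESeq2 called 1, and the block fit 3 higher and 2 lower. Of the lipoprotein receptor gene, ldlr.S had 40.5, 59.1 and 50.1 CPM in MO1, against 13.4, 30.1 and 24.4 CPM with cMO (1.14 ± 0.33, adjusted p = 0.0782; 0.000191 with the block and 1.94e-05 to 0.406 over all alternatives). Among 18 copies of export and lipase genes 2 were higher and 1 lower (0.971% and 0.534% of all genes). Both copies of the lipase gene lipg, endothelial lipase, were higher: lipg.S had 32.7, 36.5 and 37.1 CPM in MO1, against 9.83, 13.4 and 13.4 CPM with cMO (1.54 ± 0.18, adjusted p = 1.12e-05). abcg8.S, a sterol exporter subunit of gut and liver, was at 0.026, 0.227 and 0.118 CPM, against 0.358, 1.19 and 3.26 CPM (-3.75 ± 0.82, adjusted p = 0.0123). Its MO1 values are at or near the counting floor. It did not pass without MO1 replicate 1 or without cMO replicate 3 (adjusted p up to 0.174 with 1 library left out, and 3.39e-05 to 0.42 over all alternatives).

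The sterol genes were called at stage 41 and at neither earlier stage. Their median log2 fold change in MO1 was 0.09 at stage 35/36 and 0.15 at stage 37/38, with 0 of 48 called at either and 0 and 7 copies at an unadjusted p under 0.05 (6.38% and 7.21% of all genes). Without MO1 replicate 2 of stage 37/38 the median there was 0.12, with 0 called and 5 at an unadjusted p under 0.05. DESeq2 counts at those stages are not given here. The growth of the response between stages 35/36 and 41 was itself called for 2 copies among all genes (0.00629%), of which the lipase gene lipg.S had a difference of 1.59 ± 0.25 (adjusted p = 0.0101). A fit on the libraries of the compared stages only called 0 copies for that growth. In the block fit 165 genes were called for that growth (0.519%), and they included 14 of the 33 enzyme copies, all with the larger response at stage 41. MO2 embryos at stage 41 had a median of 0.62 over the list and 8 of 48 copies called higher (0.239% of all genes). No member was called for a difference between the MO1 and MO2 responses, with or without the block. Without cMO replicate 1 or MO1 replicate 2 the list had 10 higher calls, and without cMO replicate 3 it had 11; with the block all 20 were called whichever library was left out.

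**Figure D3:**
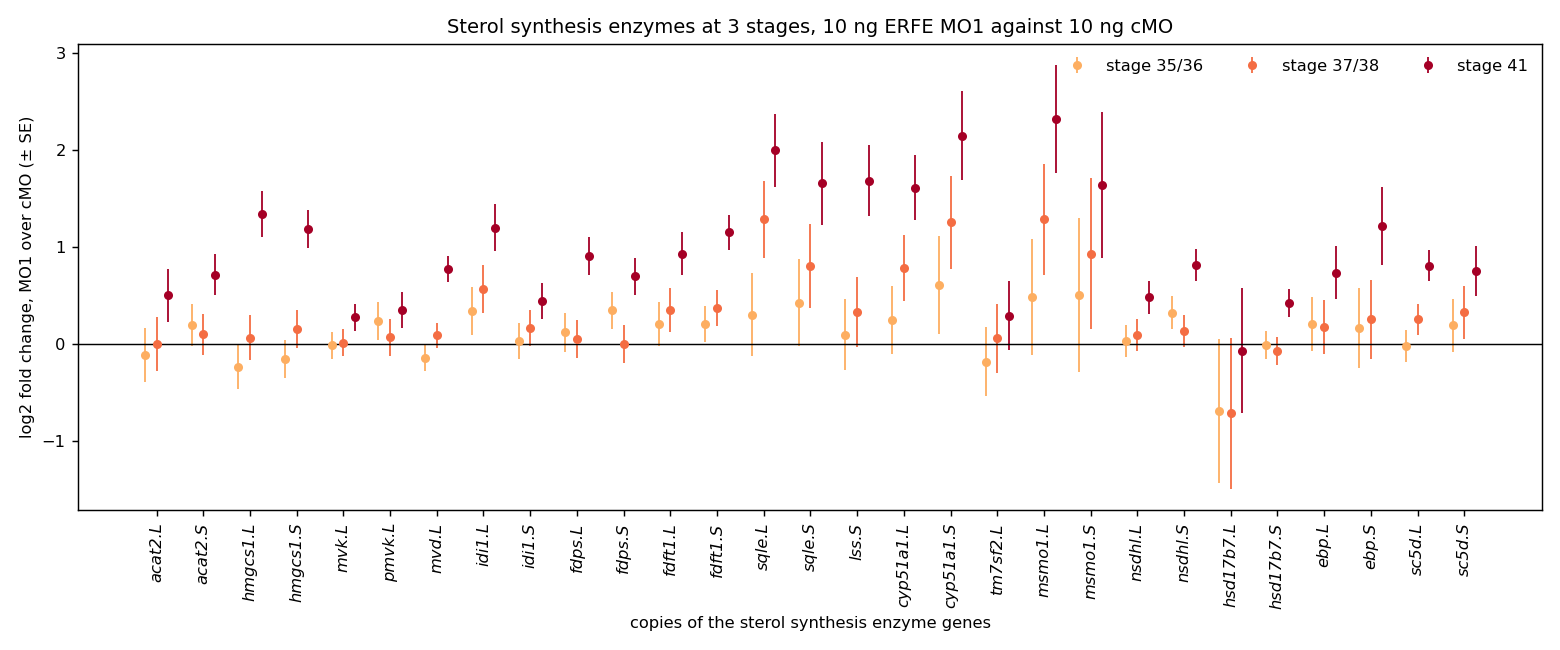
Log2 fold change of MO1 over cMO (± SE) for 29 copies of the sterol synthesis enzyme genes, in pathway order from left to right, at stages 35/36 (yellow), 37/38 (orange) and 41 (dark red). At stage 41, 28 of the 29 points lie above 0 and 15 copies were called, against 0 at each earlier stage.

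Some digestive genes were lower in MO1, and the 10 called copies had log2 fold changes of 0.51 to 6.62 at stage 41 over stage 37/38 in uninjected embryos. Of 19 stomach gene copies tested 5 were lower and none higher, of 20 exocrine pancreas copies 3 were lower, and of 23 intestine copies 2 were lower, against 0.534% of all genes. The filter on low counts kept these 19 of 30, 20 of 25 and 23 of 24 copies in the files. The median log2 fold changes of the 3 lists were -1.75, -1.08 and -0.97. The block fit called 11, 8 and 13 copies lower, against 7.95% of all genes, and 0, 1 and 0 higher, against 5.43%. In whole-embryo RNA fewer cells of a type and less RNA per cell cannot be told apart, which holds for each tissue described below.

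The proton pump of the stomach's acid-secreting cells, atp4a.L, was at 0.676, 0.492 and 2.21 CPM in MO1, against 1.99, 16.7 and 18.9 CPM with cMO and 5.72, 23.5 and 34.1 CPM in uninjected embryos (log2 fold change -3.46 ± 0.76, adjusted p = 0.0114). Replicate 1 was the lowest library of cMO and of the uninjected embryos, but not of MO1. The highest MO1 library lay above the lowest cMO library, so the groups overlapped although each pair had MO1 below cMO. In uninjected embryos at stage 37/38 the same transcript averaged 0.379 CPM, and its log2 fold change of stage 41 over stage 37/38 was 5.80. atp4a.S showed the same order in each pair, with 0.494, 4.13 and 10.3 CPM in MO1, against 9.22, 53.6 and 75.3 CPM with cMO (-3.22 ± 0.76, adjusted p = 0.0216). The mucin gene muc5ac.L, which coats the stomach lining, was at 0.572, 0.227 and 0.382 CPM, against 1.17, 2.76 and 7.16 CPM (-3.19 ± 0.60, adjusted p = 0.00306), with no overlap. anxa10.L and capn8.S, both known from mammalian gastric mucosa, fell by 2.32 and 1.95.

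In the exocrine pancreas list, the digestive enzyme gene cpa1.L (carboxypeptidase A1) was at 0.494, 0.643 and 1.15 CPM in MO1, against 1.05, 11.2 and 18.1 CPM with cMO and 3.03, 18.0 and 24.6 CPM in uninjected embryos (log2 fold change -3.72 ± 0.78, adjusted p = 0.00788). Here replicate 1 was the lowest library of each group, and the groups overlapped only through cMO replicate 1. Both copies of pdia2, a pancreatic protein folding enzyme, were lower, pdia2.S with 2.42, 4.66 and 6.67 CPM in MO1 and 7.61, 16.6 and 20.6 CPM with cMO (-1.71 ± 0.38, adjusted p = 0.0146). Of the intestine list, reg4.S, a secreted lectin, fell by 3.37 ± 0.77 (adjusted p = 0.0157) and the brush border peptidase gene anpep.L by 1.08 ± 0.28 (adjusted p = 0.0359); anpep.L did not pass against uninjected embryos. Hormone and factor genes of the endocrine pancreas and gut had 0 of 33 copies called in edgeR, 4 at an unadjusted p under 0.05 (11.9% of all genes), 0 in DESeq2 and 3 with the block (13.4% of all genes). These counts are near or below the shares of all genes.

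In the main fit, which leaves the pairing out, these calls depended on single libraries. Without cMO replicate 3, stomach, exocrine pancreas and intestine had 0 lower calls, without MO1 replicate 2 they had 1, 0 and 0, and without MO1 replicate 1 they had 1, 1 and 0. Without cMO replicate 2 stomach had 2. With the block, the 5, 3 and 2 were all called whichever library was left out. No copy of the 3 lists was called lower at stages 35/36 or 37/38 (0.0377% and 0.0974% of all genes), where 4 and 9 of the 62 had an unadjusted p under 0.05 in either direction (6.38% and 7.21% of all genes). In uninjected embryos 13 of 19, 11 of 20 and 12 of 23 copies were called higher at stage 41 than at stage 37/38. A copy with few counts before stage 41 could hardly be called lower there, so these counts do not date the change. In the opposite direction, 1 exocrine pancreas copy was called higher at stage 37/38 (0.503% of all genes). Without MO1 replicate 2 of stage 37/38 there were also 0 lower calls at that stage, and 3, 1 and 2 copies of the 3 lists had an unadjusted p under 0.05. In that fit too 1 exocrine pancreas copy was called higher (0.557% of all genes). The MO2 response at stage 41 had stomach, pancreas and intestine medians of -1.31, -0.86 and -1.10, with 3, 0 and 0 copies called lower (0.173% of all genes). At an unadjusted p under 0.05 in either direction there were 10 of 19, 10 of 20 and 15 of 23 copies. The share of all genes at that threshold is not given here for MO2.

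The genes called lower in MO1 were also set against normal development. In uninjected embryos at stage 41 against stage 37/38, 4706 of all copies (14.8%) were called higher and 4869 (15.3%) lower at stage 41. Among the 170 copies lower in MO1, 77 (45.3%) were higher at stage 41 in this normal change and 18 (10.6%) lower. Among the 309 copies higher in MO1, 53 (17.2%) were higher and 40 (12.9%) lower. The uninjected libraries of this stage change are not part of the MO1 and cMO contrast, but genes are not independent of each other, and no test was made on these shares.

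**Figure D4:**
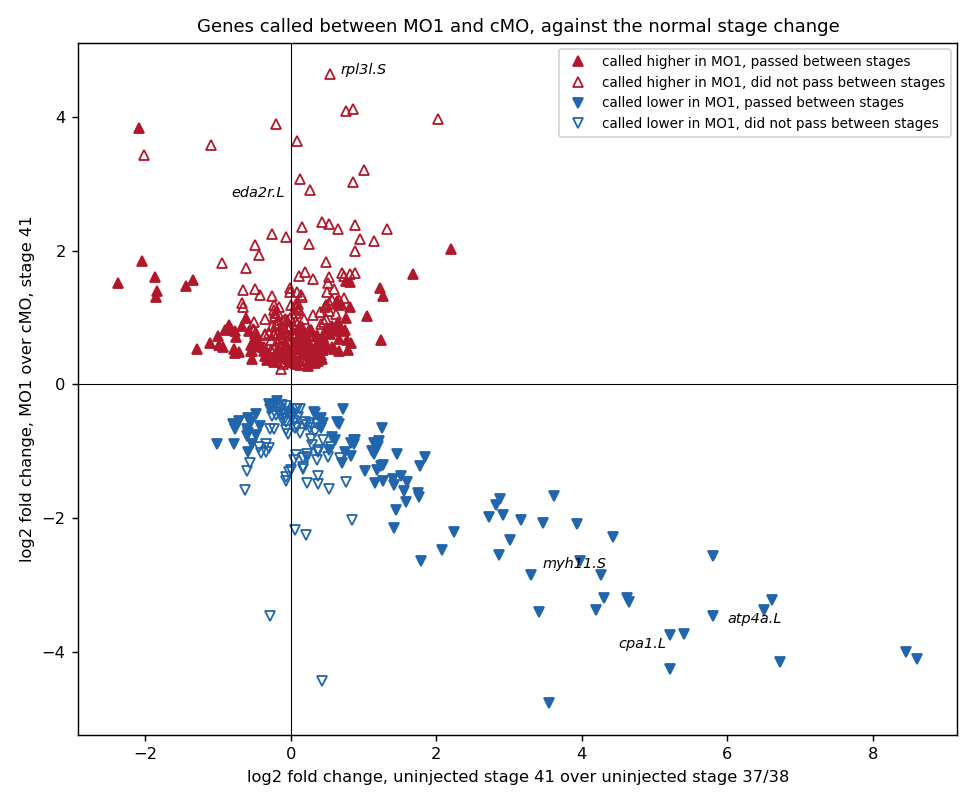
For the 479 copies called between MO1 and cMO, the log2 fold change of MO1 over cMO at stage 41 (vertical) against that of uninjected stage 41 over uninjected stage 37/38 embryos (horizontal); filled symbols passed between the stages. atp4a.L and cpa1.L lie far to the right, where transcripts were higher at stage 41 in uninjected embryos, while eda2r.L lies near 0 on that axis.

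Single genes of heart and skeletal muscle were lower as well. myh6.S, the atrial heart myosin, was at 13.6, 6.09 and 13.2 CPM in MO1, against 26.5, 25 and 46.2 CPM with cMO and 24.3, 18.2 and 54.0 CPM in uninjected embryos (log2 fold change -1.57 ± 0.37, adjusted p = 0.0228), with no overlap. Its L copy (-1.27 ± 0.30) and the slow myosin gene myh7.S (-2.09 ± 0.56) were the other 2 of 3 lower calls among 35 heart copies, against 0.534% of all genes. The median of the heart list was -0.06, and the block fit called 5 of its copies higher and 4 lower (5.43% and 7.95% of all genes). In the opposite direction nppb.S, the natriuretic peptide that a strained heart releases, had 9.16, 6.13 and 2.59 CPM in MO1, against 0.945, 0.643 and 0.587 CPM with cMO (3.03 ± 0.67, adjusted p = 0.0123). It was already higher by 3.42 and 3.29 at the earlier stages, when myh6.S had log2 fold changes of 0.14 and 0.09 (3.37 for nppb.S and 0.22 for myh6.S at stage 37/38 without MO1 replicate 2). Of 34 skeletal muscle copies, mybpc1.S and mef2c.L were lower (0.534% of all genes), and 11 with the block (7.95%). Without cMO replicate 3 neither muscle list had a call. Without MO1 replicate 2 nppb.S was the only call of both, without cMO replicate 2 the heart list had 2 lower calls and the skeletal list none, and without MO1 replicate 1 or 3 the heart list had 2 and 1 lower calls; the skeletal list had 1 without MO1 replicate 1.

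Outside these lists, the smooth muscle myosin gene myh11.S had 1.22, 2.08 and 2.26 CPM in MO1, against 6.26, 11.1 and 22.5 CPM with cMO and 7.48, 11.9 and 17.9 CPM in uninjected embryos (log2 fold change -2.84 ± 0.45, adjusted p = 0.000468). The groups did not overlap, and uninjected stage 37/38 embryos averaged 1.25 CPM. The myocardin gene myocd.L, a coactivator that turns on smooth and heart muscle genes, was at 5.12, 5.79 and 6.85 CPM, against 11.1, 15.1 and 19.5 CPM (-1.36 ± 0.23, adjusted p = 0.00109). Both passed in every fit that left out 1 library.

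Most vessel genes had lower values in MO1, although the called ones went in both directions. Of 56 endothelial copies 2 were higher and 5 lower, against 0.971% and 0.534% of all genes, and the median was -0.32. Of the 56, 14 had a log2 fold change above 0 (49.5% of all genes). The block fit called 5 higher and 19 lower, against 5.43% and 7.95% of all genes. At stage 35/36 the list had a median of -0.24 and no call in edgeR. There 17 of the 56 copies had an unadjusted p under 0.05 (6.38% of all genes). plvap.L, which forms the diaphragms of fenestrated capillaries, was at 5.75, 4.84 and 7.61 CPM in MO1, against 16.0, 12.5 and 15.8 CPM with cMO and 17.5, 13.3 and 16.3 CPM in uninjected embryos (log2 fold change -1.28 ± 0.21, adjusted p = 0.000689). The angiopoietin receptor gene tek.S and its relative tie1.S fell by 0.89 and 0.59, the adrenomedullin receptor gene calcrl.L by 0.49 and the surface protein gene mmrn2.S by 1.17; tek.S and mmrn2.S did not pass against uninjected embryos. The tight junction gene cldn5.L (1.16 ± 0.27) and the peptide gene adm.L (1.11 ± 0.26) were higher. Outside the list, esm1.S, a proteoglycan of sprouting vessel tips, had 3.82, 5.68 and 4.97 CPM, against 1.07, 0.827 and 1.14 CPM (2.24 ± 0.28, adjusted p = 1.95e-05). plvap.L and esm1.S passed in all 6 fits that left out 1 library, while the list fell to 1 lower and 1 higher call without MO1 replicate 2, to 2 lower and 0 higher without cMO replicate 1 or 3, to 2 lower and 1 higher without MO1 replicate 3, and to 5 lower and 0 higher without cMO replicate 2.

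**Figure D5:**
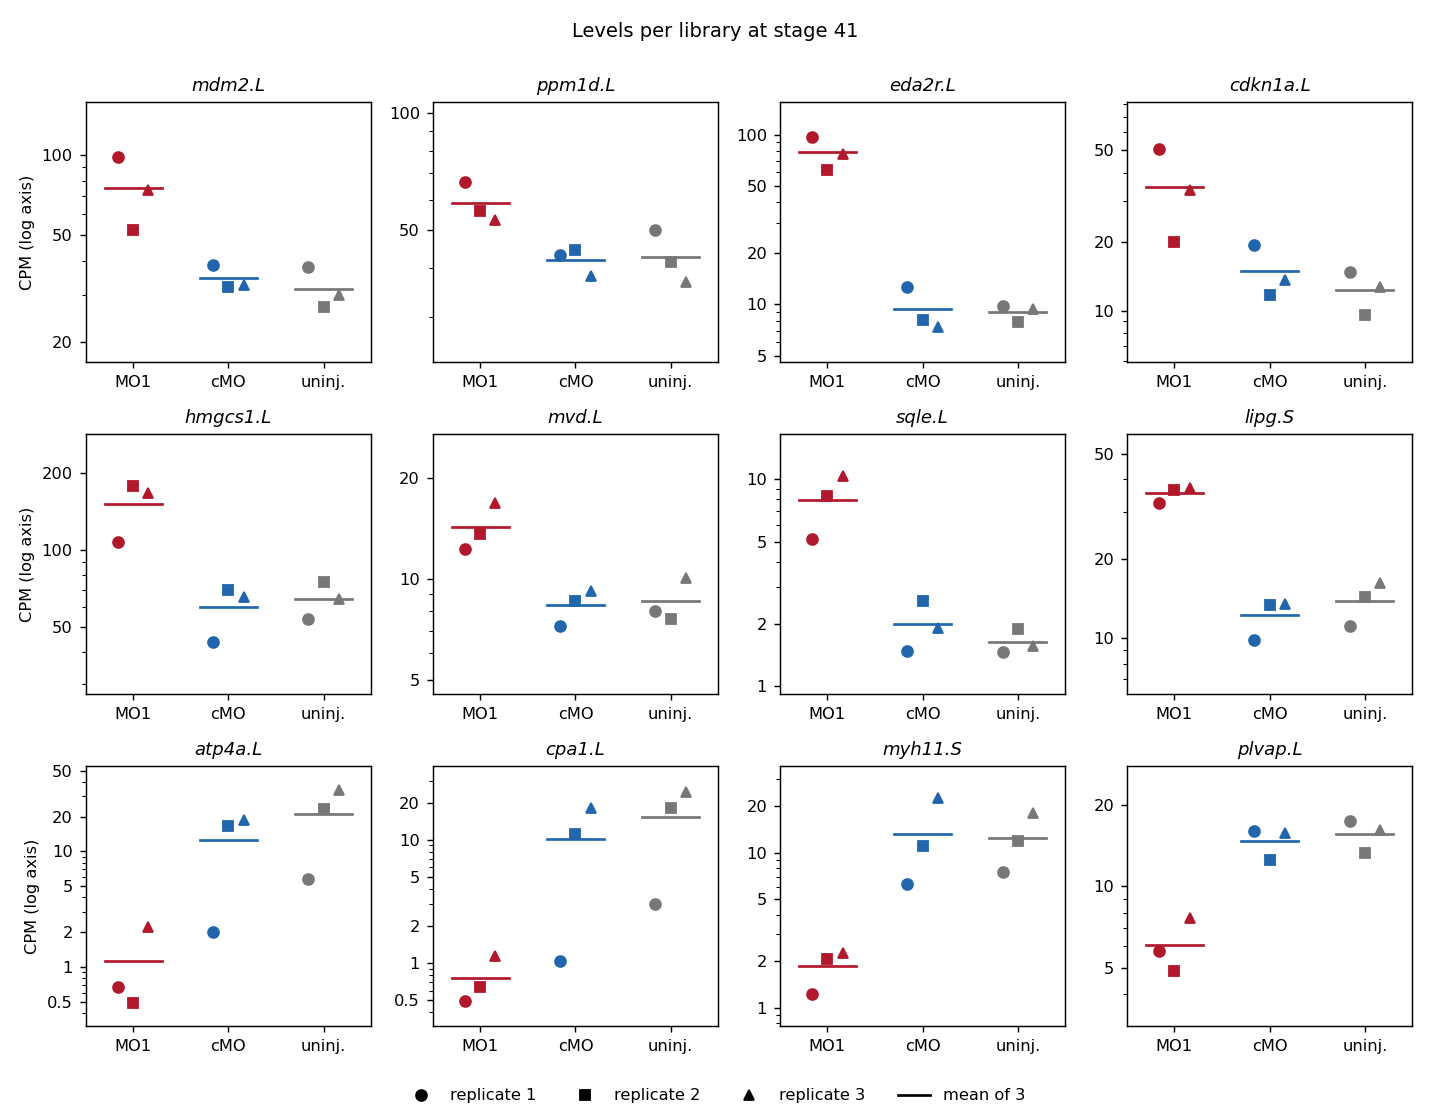
Library-scaled counts (CPM, log axis) of 12 named transcripts in each stage 41 library, with MO1 (red) left of cMO (blue) and uninjected embryos (grey); symbols give the replicate number and lines the mean of 3. mdm2.L, hmgcs1.L, lipg.S, myh11.S and plvap.L show no overlap between MO1 and the 6 control libraries, whereas atp4a.L and cpa1.L were lowest in replicate 1 within the cMO and within the uninjected embryos.

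Among liver genes, 4 of 46 plasma protein copies were lower and 0 higher, against 0.534% and 0.971% of all genes. The median of the list was -0.17, and the block fit called 3 higher and 6 lower (5.43% and 7.95% of all genes). The fibrinogen chain genes fga.S and fgb.S, whose products form clots, were at 71.1, 55.8 and 73.7 CPM and at 65.5, 64.2 and 98.1 CPM in MO1, against 161, 155 and 176 CPM and 187, 214 and 219 CPM with cMO. Their log2 fold changes were -1.29 ± 0.32 (adjusted p = 0.0309) and -1.44 ± 0.34 (adjusted p = 0.021), and fga.S lost its call in each of the 6 fits without 1 library (adjusted p up to 0.152) and did not pass against uninjected embryos. Both copies of itih2, an inhibitor chain that binds hyaluronan, fell by 1.48 and 1.10. Without cMO replicate 3 or MO1 replicate 2 the list had 0 lower calls, and without MO1 replicate 1 or cMO replicate 2 it had 2. Of 34 liver enzyme copies 2 were higher and 1 lower, and 4 and 7 with the block. The lower one, pah.L, which breaks down phenylalanine, fell by 1.01 ± 0.20 (adjusted p = 0.00577). Both copies of g6pc, the enzyme that releases glucose, were higher: g6pc.S had 28.1, 16.2 and 24.5 CPM in MO1, against 11, 9.13 and 3.96 CPM with cMO (1.52 ± 0.34, adjusted p = 0.0127). In uninjected embryos g6pc.S had a log2 fold change of -2.37 at stage 41 over stage 37/38. g6pc.L was called in 2 of the 6 fits that left out 1 library, g6pc.S was not called without MO1 replicate 1 or cMO replicate 3, and pah.L without MO1 replicate 2 or cMO replicate 3.

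Red cell and iron genes, the known setting of erythroferrone, gave few calls. Of 41 erythroid and haem gene copies 0 were called in edgeR or DESeq2 and 7 had an unadjusted p under 0.05, against 11.9% of all genes. The block fit called 1 higher and 5 lower, against 5.43% and 7.95% of all genes. The haem synthesis gene alas2.S was at 5.77, 11.5 and 13.3 CPM in MO1, against 10.2, 27.5 and 24.7 CPM with cMO (log2 fold change -1.03 ± 0.36, adjusted p = 0.173; 0.00394 with the block and 0.00159 to 0.739 over all alternatives). MO1 was lower in each pair, and the groups overlapped. Of 25 iron handling copies, only aco1.L was called, where 1.51% of all genes were. This iron-sensing RNA-binding aconitase had 114, 114 and 125 CPM, against 145, 153 and 158 CPM (-0.37 ± 0.07, adjusted p = 0.00548).

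BMP target genes had 3 of 18 copies higher and none lower, against 0.971% and 0.534% of all genes. id3.S, a direct target, was at 256, 239 and 237 CPM in MO1, against 177, 190 and 196 CPM with cMO and 195, 221 and 210 CPM in uninjected embryos (log2 fold change 0.38 ± 0.09, adjusted p = 0.0264). It did not pass against uninjected embryos (adjusted p = 0.269). The homeobox gene copies msx1.L and msx1.S rose by 0.58 and 0.56 against cMO, and of the 2 only msx1.S passed against uninjected embryos. The median of the 18 was 0.32, and the block fit called 9 higher (5.43% of all genes). Without cMO replicate 1, cMO replicate 3 or MO1 replicate 2 there was no call in the list, without MO1 replicate 1 or cMO replicate 2 there was 1, and without MO1 replicate 3 there were 2; with the block the 3 were called whichever library was left out. The 32 copies of ligand, antagonist, receptor and Smad genes gave no call in the main edgeR fit or DESeq2. Of these, 6 had an unadjusted p under 0.05 (11.9% of all genes). The block fit called 5 higher and 1 lower, all ligands or antagonists, against 5.43% and 7.95% of all genes.

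Matrix-bound growth regulators of the CCN family had 5 of 12 copies higher, against 0.971% of all genes. ctgf.L was at 103, 102 and 106 CPM in MO1, against 55.4, 61.0 and 61.1 CPM with cMO and 62.6, 71.3 and 75.4 CPM in uninjected embryos (log2 fold change 0.81 ± 0.11, adjusted p = 4.47e-05). The 3 MO1 libraries differed by little and lay above both control groups. ctgf.S, cyr61.L, cyr61.S and nov.L rose by 0.67 to 1.25, all with a pass against uninjected embryos. The 55 collagen copies gave no call in the main edgeR fit or DESeq2 and 12 at an unadjusted p under 0.05 (11.9% of all genes). The block fit called 1 of them higher and 8 lower, against 5.43% and 7.95% of all genes.

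Stress and growth genes outside the p53 pathway included the ATF4 arm, genes that respond to a shortage of amino acids, with 4 of 31 copies higher (14 with the block) and a median of 0.45, against 0.971% of all genes and 5.43% with the block; 3 of the 4 passed against uninjected embryos. stc2.L, a secreted glycoprotein of that response, had 14.2, 9.92 and 9.64 CPM in MO1, against 4.55, 5.06 and 5.16 CPM with cMO (log2 fold change 1.19 ± 0.21, adjusted p = 0.00138). The chaperones of the endoplasmic reticulum had 0 of 14 called in the main edgeR fit, 2 at an unadjusted p under 0.05 (11.9% of all genes) and 1 in DESeq2. The block fit called 1 of them higher and 3 lower (5.43% and 7.95% of all genes). Of 62 cell cycle copies, the kinase inhibitor copies cdkn2b.L and cdkn2b.S were higher (2.40 ± 0.49 and 3.58 ± 0.86), and mcm5.S, e2f1.S and cdc25b.S, of DNA replication and division, fell by 0.43 to 0.58, where 0.971% of all genes were higher and 0.534% lower. Of these, mcm5.S and cdc25b.S did not pass against uninjected embryos. The block fit called 4 cell cycle copies higher and 19 lower, against 5.43% and 7.95% of all genes. The ATF4 arm had 2 calls without MO1 replicate 2 and 1 without cMO replicate 3, and the cell cycle list had none without cMO replicate 3, 1 higher and 2 lower without cMO replicate 1, and 1 lower without MO1 replicate 2 or 3.

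Some transcripts that were nearly absent in control embryos had large fold changes. rpl3l.S, a muscle form of a ribosomal protein, was at 2.21, 1.36 and 3.06 CPM in MO1, against 0.0511, 0.0919 and 0.117 CPM with cMO and 0.15, 0.0529 and 0.125 CPM in uninjected embryos (log2 fold change 4.64 ± 0.79, adjusted p = 0.00107). Most control values are at or near the floor. MO2 embryos did not show it (-0.77 ± 0.91); the MO1 minus MO2 difference of 5.40 ± 1.21 missed the threshold (adjusted p = 0.494) and passed with the block (adjusted p = 0.0377, against 0.0353 to 1 over all alternatives). The cytokine gene lif.S had 3.93, 0.681 and 1.21 CPM, against 0.179, 0.0306 and 0.117 CPM (4.08 ± 0.75, adjusted p = 0.00243), with MO1 replicate 1 far above the others. Both had high log2 fold changes in MO1 at stage 35/36 too, 4.84 for rpl3l.S and 3.40 for lif.S. Of the 2 rpl3l copies tested, only rpl3l.S was called at stage 41, with or without the block.

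The growth hormone releasing hormone gene is the case where the control group differs. ghrh.L was at 0.312, 0.189 and 0.0882 CPM in MO1, against 2.45, 2.27 and 2.0 CPM with cMO, but 0.262, 0.0265 and 0.0623 CPM in uninjected embryos. It was called lower against cMO (log2 fold change -3.46 ± 0.48, adjusted p = 6.94e-05) and not against uninjected embryos (0.88, adjusted p = 0.682), and ghrh.S had the same order. These were the 2 genes that cMO changed against uninjected embryos, and cMO was the group that stood apart.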

How the data were processed

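RNA from whole embryos was made into TruSeq RNA v2 libraries, per the labels' protocols, a kit that does not mark strand. The deposited values are whole-number read counts per gene; bcl2fastq 2.17.1.14, FastQC 0.11.5, STAR 2.5.2a, featureCounts 1.5.0-p1 and DESeq2 1.8.2 are named in the submitters' processing notes. No genome build is given in the sources used here.

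Counts of all 45 libraries in 15 groups were fitted with edgeR 4.0.16 (R 4.3.3, TMM scaling, quasi-likelihood test, 1 term per group). The filter on low values (filterByExpr, minimum count 10) left 31817 of 45038 gene copies. Calls were made at a Benjamini-Hochberg adjusted p under 0.05 over all copies tested. CPM are TMM-scaled, and SE is the size of the log2 fold change over the square root of F. The fit was tested on simulated data that held no replicate effect. That test cannot show how the fit behaves where same-numbered libraries resemble each other. DESeq2 1.42.0 was an alternative.

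Same-numbered libraries of MO1, cMO and uninjected embryos at stage 41 deviated together (9 pairs, Pearson r 0.367 to 0.689). Other pairs of these 3 groups had r of at most -0.0208, and up to 0.122 with the 20 ng groups. Deviations were taken from means of 3 libraries, so positive r in same-numbered pairs pushes the others below 0. The numbers pair the samples by this check, but what a number marks is not given in the labels. Members, lists and alternatives were chosen with earlier results of these data known. Named genes were the target, the 15 largest folds and 10 smallest p-values per direction at 1 CPM or more, up to 6 per list over 36 lists, and the genes cMO changed; other members of a list are named with its count. Promoter sequences were not analysed here. A few genes that the rule names are not reported here; the counts of their lists hold them.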

Additional observations from a re-analysis of the deposited data

Results flagged for a closer look

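The MO1 response over cMO was larger at stage 41 than at stage 35/36 for lipg.S, endothelial lipase, in a test of the difference itself, with a difference of 1.59 ± 0.25 on the log2 scale (edgeR adjusted p = 0.0101). In a fit of the compared stages only, 0 copies were called for this difference, so lipg.S did not pass there. Each MO1 library at stage 41 lay above all 6 control libraries of that stage.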

How the results depend on the processing

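For MO1 against cMO, 479 calls became 1566 with a lane term, 4256 with the replicate block, 113 with the compared stages only, 2 with the 6 libraries only, 3278 with these and the block, 3880 with stage 41 only and the block (added after seeing the data), and 756 in DESeq2. Leaving out 1 library gave 108 to 498 calls, and 2529 to 3776 with the block (2735, 2875, 2593 and 3224 without cMO replicate 1, cMO replicate 3, MO1 replicate 2 and MO1 replicate 3). For MO1 against uninjected embryos, 594 calls became 1673 with lane, 3531 with the block, 136 with the compared stages only, 3271 with stage 41 only and the block, 924 in DESeq2 and 207 to 536 without 1 library. For cMO against uninjected embryos, 2 calls became 4 with lane, 15 with the block, 0 with the compared stages only, 4 with stage 41 only and the block, 4 in DESeq2 and 1 to 2 without 1 library. For the MO1 minus MO2 response, 0 calls became 4 with lane, 92 with the block, 3 with the compared stages only, 1 in DESeq2 and 0 to 1 without 1 library. For the stage 41 minus stage 35/36 response, 2 calls became 29 with lane, 165 with the block, 0 with the compared stages only, 14 in DESeq2 and 1 to 6 without 1 library. Uninjected stage 41 against stage 37/38 gave 9575 calls and 5358 to 10233 without 1 library. The cause of these moves was not tested. The smaller fits also hold fewer samples. The 309 higher and 170 lower calls for MO1 against cMO became 276 and 184 with RLE scaling, and the lower calls were the more numerous with the block (1728 and 2528), with a lane term (775 and 791), without MO1 replicate 1 (215 and 283) and in every other fit with the block. Against uninjected embryos, 353 higher and 241 lower calls became 1657 and 1874 with the block and 812 and 861 with a lane term. No named gene with a call changed its direction under these settings. Leaving out the MO2 stage 35/36 library that resembles another gave 530 calls, and leaving out MO1 replicate 2 of stage 37/38 in its place gave 468 (added after seeing the data). Low counts limit the folds of transcripts near 3 counts in a library, such as abcg8.S, rpl3l.S and lif.S.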

Other observations

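A further 4 groups were put together after their values were seen, so their counts are a description only. The other lists were also chosen with earlier results of these data known. Over all genes, 0.971% were called higher and 0.534% lower. Of 24 smooth muscle gene copies 7 were lower in MO1 than in cMO and none higher, with a median log2 fold change of -0.75 (-0.00 over all genes). They were myh11.S, myocd.L, myocd.S, mylk.L, itga1.L, itga8.S and pdgfrb.S, contractile genes, their coactivator and adhesion or receptor genes, and pdgfrb.S did not pass against uninjected embryos. The count was 3 without MO1 replicate 2 or cMO replicate 3, 4 without cMO replicate 2 and 11 without cMO replicate 1. Of 11 copies of carriers and a motor protein of absorptive brush borders 5 were lower (slc5a9.L, slc5a12.L, slc6a19.S, slc9a2.S and myo1a.S), with a median of -0.88; slc5a9.L and myo1a.S did not pass against uninjected embryos. Leaving out MO1 replicate 2 or cMO replicate 3 gave 1, and leaving out MO1 replicate 1 or either of cMO replicates 1 and 2 gave 3.

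Of 35 subunit copies of the proton pump that acidifies lysosomes 7 were higher and none lower, with a median of 0.31 and 34 of 35 above 0, and 6 of the 7 passed against uninjected embryos. Leaving out cMO replicate 3 gave 0, cMO replicate 1 or MO1 replicate 2 gave 1, and cMO replicate 2 gave 4. Of 22 copies of early response genes, transcription factors of the AP-1 family and phosphatases that limit their pathway, 5 were higher (fosl2.L, fosl2.S, atf3.S, dusp5.L and dusp6.L), with a median of 1.05 and all 22 above 0; atf3.S did not pass against uninjected embryos. Their median difference within replicate pairs was 1.30 in pair 1, 0.66 in pair 2 and 0.74 in pair 3. The count was 0 without cMO replicate 3, 2 without replicate 1 of cMO or MO1, and 3 without replicate 2 of either.

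Of 16 inflammation gene copies none was lower in MO1 than in cMO within replicate pair 1, against 11 in pair 2 and 7 in pair 3. None was called in the main edgeR fit (1 at an unadjusted p under 0.05, where 11.9% of all genes were, and 1 in DESeq2). The block fit called 2 higher and 0 lower (5.43% and 7.95% of all genes). What sets replicate 1 apart was not tested.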
